A study of Drosophila melanogaster with 18 samples.

Results

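The genes described here encode the enzymes that dispose of superoxide and hydrogen peroxide in the cell: 5 peroxiredoxins (Prx6c, Prx3, Prx5, Jafrac1 and Jafrac2), the superoxide dismutases Sod1 and Sod2, the catalase Cat, and Trxr1, the thioredoxin reductase that supplies the thioredoxin cycle. Members were the probe sets that the array annotation names for 1 of these 9 genes alone, by its current symbol or a synonym. That gave 5 probe sets among the 18769 tested, 1 each for Prx6c, Prx3, Sod2, Cat and Trxr1. Prx5, Jafrac1, Jafrac2 and Sod1 were not analysed here, because no probe set was named for them alone. Prx6c was chosen by its measured intensities in these samples, for their difference between stocks, so its stock differences are described and not tested, and the tests below concern the other genes and the effect of temperature within a stock.

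RNA was measured in whole ovaries of Drosophila melanogaster females with Affymetrix Drosophila Genome 2.0 arrays, in 6 groups of 3 samples stated to be biologically independent. At 20 °C, which the labels call untreated, the groups were yw, RpII2154/FM7, and these 2 combined with the deletion, Marcal1del/del and RpII2154/FM7;Marcal1del/del. At 25 °C, which the labels call heat stress, they were yw and Marcal1del/del. The yw stock is mutant for the pigment genes yellow and white and is the stock without either change. Marcal1del/del flies lack both intact copies of Marcal1, whose human counterpart SMARCAL1 is an annealing helicase. RpII2154 is an allele of RpII215, which encodes the largest subunit of RNA polymerase II, and it is heterozygous here over FM7, a balancer of the X chromosome. RpII2154/FM7;Marcal1del/del flies carry both changes. The labels do not give the age of the flies, how many ovaries made up a sample, or whether the stocks share a genetic background apart from the named alleles. A difference between stocks is therefore a difference between whole stocks, and in whole ovaries fewer cells of a type and less RNA per cell cannot be told apart. Values are log2 intensities normalized across arrays by the authors, so a difference of 1 is a doubling.

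Superoxide dismutases turn superoxide into hydrogen peroxide, Sod2 in the mitochondrial matrix and Sod1 mainly in the cytosol. Catalase, held largely in peroxisomes, and the peroxiredoxins then reduce the peroxide, the latter through a reactive cysteine that is mostly restored by thioredoxin. Flies lack a glutathione reductase, and Trxr1 serves both the thioredoxin and the glutathione pools. Prx6c, once called Prx2540-2, belongs to the Prx6 class, whose members act through a single catalytic cysteine, and lies on chromosome arm 2R in a cluster with the closely similar genes Prx6b (Prx2540-1) and CG12896.

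The Marcal1 probe set checked the deletion labels: its group means were 7.79 to 8.11 in the groups without the deletion and 5.84 to 6.03 in the groups with it (adjusted p = 4.39e-05 at 20 °C, 3.65e-05 at 25 °C and 8.28e-05 with RpII2154/FM7, limma). RpII215 was not analysed here. A list of 6 germline genes averaged 10.2 to 10.6 on every array. Late follicle cell eggshell genes (8 of 9 measured) were low on yw replicate 1 at 20 °C, with a list mean of 11.5 where its group's other arrays had 13.6. They were low on RpII2154/FM7 replicate 3 too, with 9.09 where the others had 13.9 and 14.0. Muscle genes (5 of 8 measured, 2 of them below the median of every array) were high on yw replicate 1 at 25 °C, with a list mean of 7.44 where the others had 5.17 and 5.19. Marcal1del/del replicate 1 at 25 °C came next among the 18 arrays, with 6.71 where its group's others had 5.53 and 4.66. The first 3 of these arrays stood apart, and results of the members that rest on them are given with and without them. The 6 arrays with RpII2154/FM7 belonged to another array series than the 12 without it, so array series and genotype cannot be told apart between them. The GAPDH controls, which gauge how intact the RNA is, read higher at the 3′ than at the 5′ end by a mean of 1.49 in RpII2154/FM7 and by 1.53 where the deletion was added to it, against 1.07 to 1.28 in the groups without RpII2154/FM7. For the actin controls these means were 1.37, 1.70 and 0.95 to 1.05, and for the eIF-4a controls 1.69, 2.14 and 1.35 to 1.48.

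Prx6c had group means spanning 3.49 in log2, where those of the other 4 measured genes spanned 0.30 to 0.48. At 20 °C its level was 7.6, 6.84 and 7.77 on the yw arrays (7.40 ± 0.50, SD, n = 3). The Marcal1del/del arrays gave 9.21, 8.28 and 8.49 (8.66 ± 0.49, SD, n = 3). Every Marcal1del/del array lay above every yw array, a difference of 1.26 in log2 or 2.39-fold. In the RpII2154/FM7 arrays the level was 7.93, 7.52 and 7.69 (7.71 ± 0.21, SD, n = 3). The RpII2154/FM7;Marcal1del/del arrays gave 5.26, 5.45 and 4.83 (5.18 ± 0.32, SD, n = 3), the lowest values of the 18. There the stock with the deletion was the lower, with a log2 difference of -2.54 (5.80-fold), again with no overlap. Relative to Marcal1del/del at 20 °C, RpII2154/FM7;Marcal1del/del was 11.2-fold lower, while RpII2154/FM7 and yw overlapped with means 0.31 apart.

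At 25 °C the order of the yw and Marcal1del/del stocks was the same as at 20 °C. The yw arrays read 6.75, 7.06 and 7.71 for Prx6c (7.17 ± 0.49, SD, n = 3), and the Marcal1del/del arrays 7.96, 8.01 and 8.21 (8.06 ± 0.13, SD, n = 3). The Marcal1del/del arrays were all higher, by 0.89 in log2 or 1.85-fold. The change with Marcal1del/del at 25 °C minus that at 20 °C was -0.37, against SDs within these groups of 0.13 to 0.50. It was -0.09 without yw replicate 2 at 20 °C and -0.68 without the 3 arrays that stood apart. Ordered by group mean, Prx6c ran from Marcal1del/del at 20 °C through Marcal1del/del at 25 °C, RpII2154/FM7, yw at 20 °C and yw at 25 °C to RpII2154/FM7;Marcal1del/del. The arrays of RpII2154/FM7, yw at 20 °C and yw at 25 °C overlapped with one another, and those of RpII2154/FM7;Marcal1del/del were clear of all others. The Marcal1del/del groups did not overlap each other, and at 25 °C the lowest array, 7.96, was just above the highest of RpII2154/FM7, 7.93. The pooled SD within groups was 0.38.

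**Figure D1:**
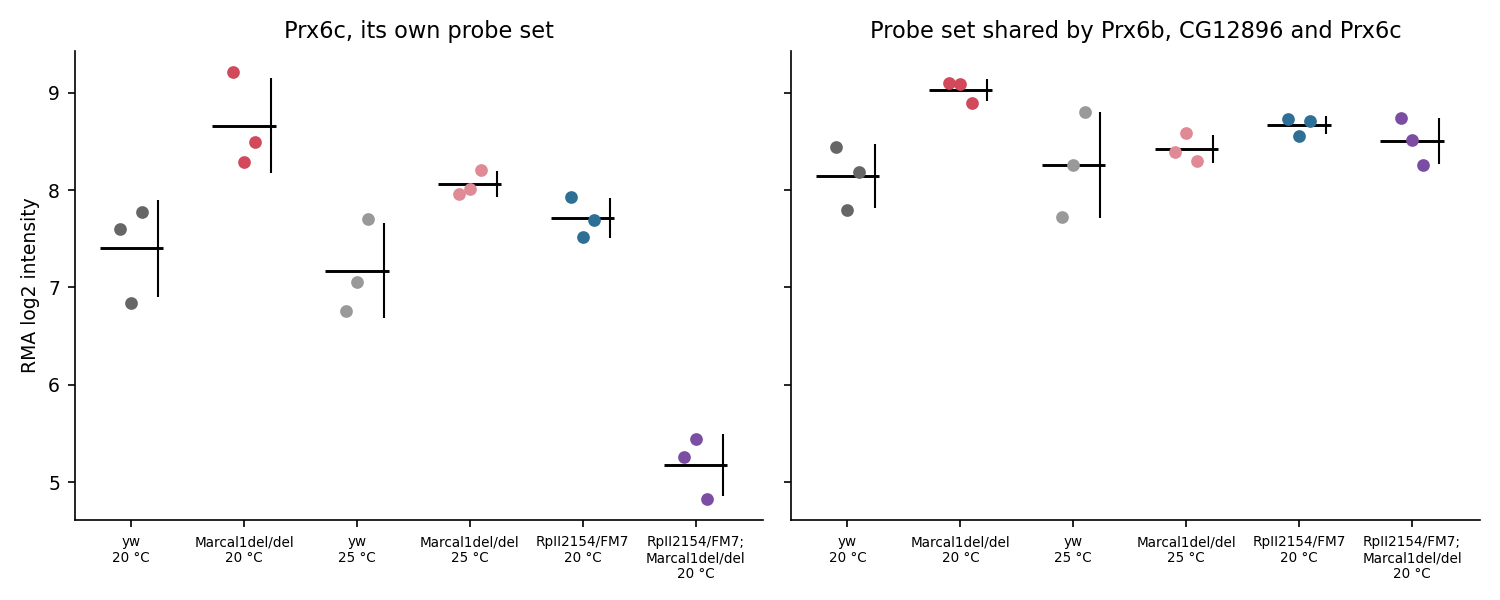
RMA log2 intensity (y axis) of the Prx6c probe set (left) and of the probe set shared by Prx6b, CG12896 and Prx6c (right) in the 6 groups (x axis), with points for arrays, horizontal lines for group means and vertical lines for 1 SD to either side (n = 3). The RpII2154/FM7;Marcal1del/del arrays lie at 4.83 to 5.45 on the left and at 8.26 to 8.74 on the right.

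The differences kept their directions without the arrays that stood apart. With those left out, the Prx6c difference between Marcal1del/del and yw was 1.36 at 20 °C and 0.68 at 25 °C, and that between RpII2154/FM7;Marcal1del/del and RpII2154/FM7 was -2.55. Without Marcal1del/del replicate 1 at 25 °C, the difference at 25 °C was 0.94. Eggshell genes also differed between the stocks. They averaged 13.9 to 14.1 in Marcal1del/del and 12.2 to 12.8 in yw at 25 °C, and 13.7 to 14.2 and 11.5 to 13.6 at 20 °C, without overlap at either temperature. Their lowest group mean, 12.0, was in RpII2154/FM7;Marcal1del/del, where Prx6c was lowest, with 12.3 in RpII2154/FM7, whose arrays ran from 9.09 to 14.0. The list averages for muscle, 6.21 to 6.65 in RpII2154/FM7 and 4.91 to 5.75 in RpII2154/FM7;Marcal1del/del, and for hemocyte genes (7 measured, 2 below every array median), 5.21 to 5.70 and 4.67 to 5.01, moved in the same direction as Prx6c. Between the same groups the eIF-4a controls, a measure of RNA quality, did not overlap, at 1.56 to 1.84 and 1.91 to 2.46. The GAPDH controls did overlap, at 1.32 to 1.59 and 1.25 to 1.76, as did the actin controls, at 1.26 to 1.56 and 1.48 to 2.04. Between Marcal1del/del and yw at 20 °C muscle genes moved against Prx6c, at 4.95 to 5.22 and 5.43 to 5.76, and hemocyte genes overlapped. The part of these marker genes and of RNA quality in the Prx6c differences was not tested.

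A second probe set is annotated to Prx6b, CG12896 and Prx6c together, and it did not follow the Prx6c set in the stocks with RpII2154/FM7. It read 8.73, 8.56 and 8.71 in RpII2154/FM7 (8.67 ± 0.09, SD, n = 3) and 8.74, 8.51 and 8.26 in RpII2154/FM7;Marcal1del/del (8.50 ± 0.24, SD, n = 3). The arrays overlapped, with a difference of means of -0.16, where that of the Prx6c set was -2.54. At 20 °C the shared set read 8.45, 7.79 and 8.18 in yw and 9.10, 9.09 and 8.90 in Marcal1del/del, so that Marcal1del/del was 1.85-fold higher with no overlap. At 25 °C the means of yw (8.26) and Marcal1del/del (8.42) were 0.17 apart and the arrays overlapped. The yw arrays read 7.72, 8.25 and 8.80 there, and the Marcal1del/del arrays 8.39, 8.58 and 8.30. The lowest, 7.72, was yw replicate 1, which stood apart. The difference was not computed without it, so its direction at 25 °C rests on that array. Because the shared set also names Prx6c, these values are a description too. The signals of the 3 genes within the shared set cannot be separated.

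Prx6c did not pass the test for temperature in either stock. In Marcal1del/del its mean was 0.60 ± 0.28 (SE) lower at 25 than at 20 °C, and the arrays did not overlap. The 95% confidence interval ran from -1.20 to -0.01 and the adjusted p over all probe sets was 1.00 (unadjusted p = 0.0474). In yw the mean was 0.23 ± 0.28 (SE) lower at 25 °C (interval -0.82 to 0.36, adjusted p = 0.925), with overlapping arrays. Without yw replicate 1 of each temperature the yw difference was 0.08 higher at 25 °C. The shared set was 0.61 ± 0.22 (SE) lower at 25 °C in Marcal1del/del (adjusted p = 0.757) and 0.12 higher in yw (adjusted p = 0.960). In yw, replicate 1 had the highest shared-set value at 20 °C, 8.45, and the lowest at 25 °C, 7.72. Both arrays stood apart, and the shared-set difference in yw was not computed without them. All these tests reuse arrays of the stock differences for which Prx6c was chosen. Marcal1del/del at 20 °C had the highest Prx6c mean, so a fall from it at 25 °C is not free of that choice.

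Genes beside Prx6c on 2R were compared next, the 5 nearest measured on each side in gene order. Of these 10, 0 were called in each of the 9 contrasts, in which 0.0107% to 3.85% of all probe sets were called, so 0 of 10 is near the background. Between RpII2154/FM7;Marcal1del/del and RpII2154/FM7 their differences ran from -0.28 to 0.45, and between Marcal1del/del and yw at 20 °C from -0.41 to 0.39. CG11825, the next gene on one side, had group means of 8.41 to 9.19. Its highest mean was in RpII2154/FM7;Marcal1del/del, where Prx6c was lowest. Among the 10, 6 (Ir47a, CG12898, CG33477, CG33476, CG33475 and CG33474) had group means below the median of every array (4.08 to 4.2), so only RanBPM, CG12895, Galphao and CG11825 were measured well above it. Prx6b and CG12896, which lie among these genes, have no set of their own here.

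**Figure D2:**
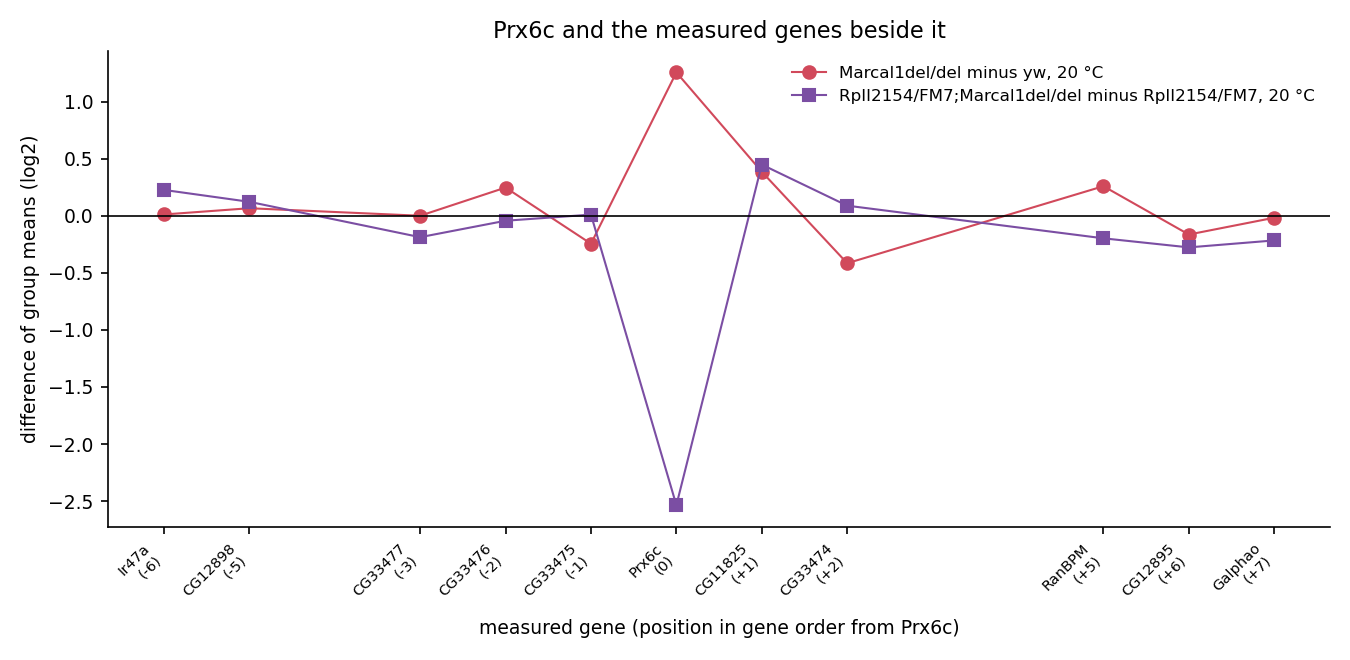
Difference of group means in log2 (y axis) for Prx6c and the 10 measured genes beside it in gene order (x axis), for Marcal1del/del minus yw and for RpII2154/FM7;Marcal1del/del minus RpII2154/FM7, both at 20 °C. Prx6c stands at 1.26 and -2.54, while the 10 neighbours lie between -0.41 and 0.45.

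Among 943 genes whose group means spanned at least 1 in log2, those most like Prx6c over the 18 arrays were PGRP-LB (Pearson r = 0.88), CG18324 (0.82), rhea (0.82), CG1146 (0.80) and CG32243 (0.79). PGRP-LB encodes a peptidoglycan amidase and rhea encodes talin. Those most opposed were CG3520 (r = -0.91), the cytochrome P450 gene Cyp12d1-d (-0.90), CG13540 (-0.88), CG10562 (-0.87) and Spn47C (-0.87). Spn47C had every group mean below every array median (4.08 to 4.2), as had Cyp12d1-d and CG10562 outside RpII2154/FM7;Marcal1del/del. CG13540 had means of 4.01 to 4.64 outside that group, near those medians. RpII2154/FM7;Marcal1del/del had the lowest mean of the 5 alike genes and the highest of the 5 opposed genes: PGRP-LB had a mean of 4.31 there and 5.07 to 5.59 elsewhere, and CG3520 8.28 against 7.13 to 7.37. Genes chosen by r with Prx6c, itself lowest in that group, would tend to show this, so it is not a separate result. The arrays share stocks and array series, and the coefficients were computed over all of them, so they are a description of these 18 arrays.

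For Prx3, Sod2, Cat and Trxr1, 28 tests were made, 4 genes in each of 7 comparisons of 2 groups, and none was called at an adjusted p under 0.05 (limma, Benjamini-Hochberg over all probe sets). Unadjusted p-values were under 0.05 in 6 of the 28. The lowest adjusted p was 0.176, and the largest change was 1.31-fold, of Cat. The confidence interval that reached farthest from 0, also of Cat, ended at 1.62-fold. For the other genes the farthest ends were 1.37-fold for Prx3, 1.52-fold for Sod2 and 1.46-fold for Trxr1.

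Prx3, the mitochondrial peroxiredoxin, lay between 10.2 and 10.7 on all 18 arrays. Its lowest group mean was 10.27 ± 0.05 (SD, n = 3) in Marcal1del/del at 20 °C and its highest 10.66 ± 0.01 in RpII2154/FM7. The RpII2154/FM7 arrays (10.67, 10.65 and 10.65) were all above those of yw at 20 °C (10.62, 10.23 and 10.40). That difference of 0.24 ± 0.10 (SE) did not pass after adjustment (adjusted p = 0.238). It was 0.34 (adjusted p = 0.12) when the 3 outlying arrays were left out.

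Sod2, the mitochondrial manganese superoxide dismutase, had group means between 10.83 and 11.13. The most variable group was yw at 20 °C, at 11.15, 10.52 and 10.83. RpII2154/FM7, at 11.09, 11.11 and 11.20, had a mean higher by 0.30 ± 0.14 (SE), with overlapping arrays and an adjusted p of 0.281 (0.43 and 0.124 without the outlying arrays). In yw its mean was 0.24 higher at 25 than at 20 °C (adjusted p = 0.779), and 0.47 higher without those arrays (adjusted p = 0.0893). Marcal1del/del and yw differed by 0.04 at 20 °C (interval -0.26 to 0.33) and by -0.16 at 25 °C (interval -0.46 to 0.14).

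Cat, the catalase gene, had the widest range of the 4, from 8.37 to 9.18. In RpII2154/FM7 it read 9.18, 9.09 and 8.91 (9.06 ± 0.14, SD, n = 3). In RpII2154/FM7;Marcal1del/del it read 8.69, 8.56 and 8.77 (8.67 ± 0.11, SD, n = 3). All 3 RpII2154/FM7 arrays were the higher, by 0.39 ± 0.15 (SE), which did not pass after adjustment (interval of the change -0.70 to -0.08, adjusted p = 0.176). RpII2154/FM7 also lay above yw at 20 °C, which read 8.77, 8.68 and 8.64, by 0.36 (adjusted p = 0.204). Both comparisons share the RpII2154/FM7 arrays. Without the arrays that stood apart the changes were -0.46 (adjusted p = 0.105) and 0.48 (adjusted p = 0.134). Marcal1del/del at 20 °C read 9.11, 8.54 and 8.85, overlapping yw, and the change with the deletion differed by -0.52 ± 0.21 (SE) with and without RpII2154/FM7 (adjusted p = 0.341).

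**Figure D3:**
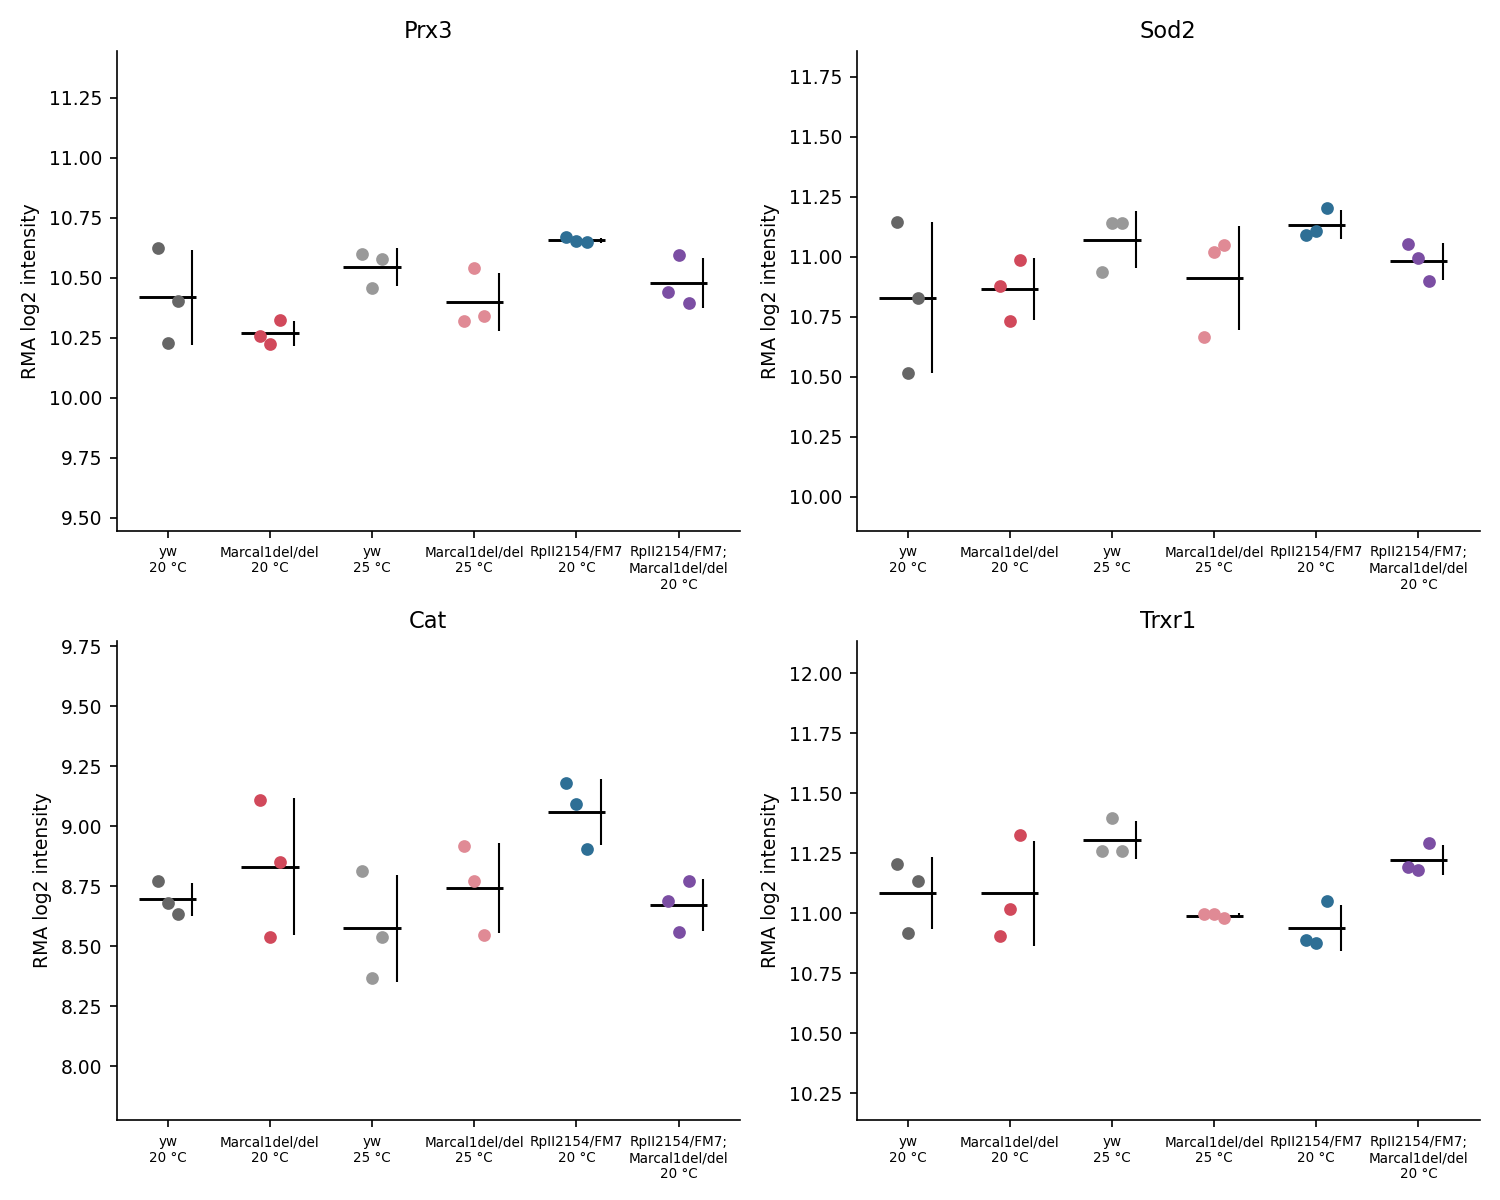
RMA log2 intensity (y axis, 2 log2 units in each panel) of Prx3, Sod2, Cat and Trxr1 in the 6 groups (x axis), with points for arrays, horizontal lines for group means and vertical lines for 1 SD to either side (n = 3). Group means span 0.39 for Prx3, 0.30 for Sod2, 0.48 for Cat and 0.37 for Trxr1.

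Trxr1, the reductase that feeds electrons from NADPH into the thioredoxin pathway, differed most at 25 °C. There it read 11.26, 11.40 and 11.26 in yw (11.31 ± 0.08, SD, n = 3) and 11.0, 11.0 and 10.98 in Marcal1del/del (10.99 ± 0.01, SD, n = 3). The yw arrays were all higher, by 0.31 ± 0.11 (SE), which did not pass after adjustment (adjusted p = 0.293; -0.34 and 0.257 for the change without the outlying array). At 20 °C the same stocks had means of 11.09 and 11.08 (interval of the change -0.23 to 0.23), and the difference between the changes at 25 and 20 °C was -0.31 ± 0.15 (adjusted p = 1.00). Trxr1 also read 0.28 ± 0.11 (SE) higher in RpII2154/FM7;Marcal1del/del (11.19, 11.18 and 11.29) than in RpII2154/FM7 (10.89, 10.88 and 11.05), with no overlap and an adjusted p of 0.181 (0.34 and 0.132 without the outlying array). The sign there was opposite to that of Prx3, Sod2 and Cat, whose means were lower in RpII2154/FM7;Marcal1del/del.

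**Figure D4:**
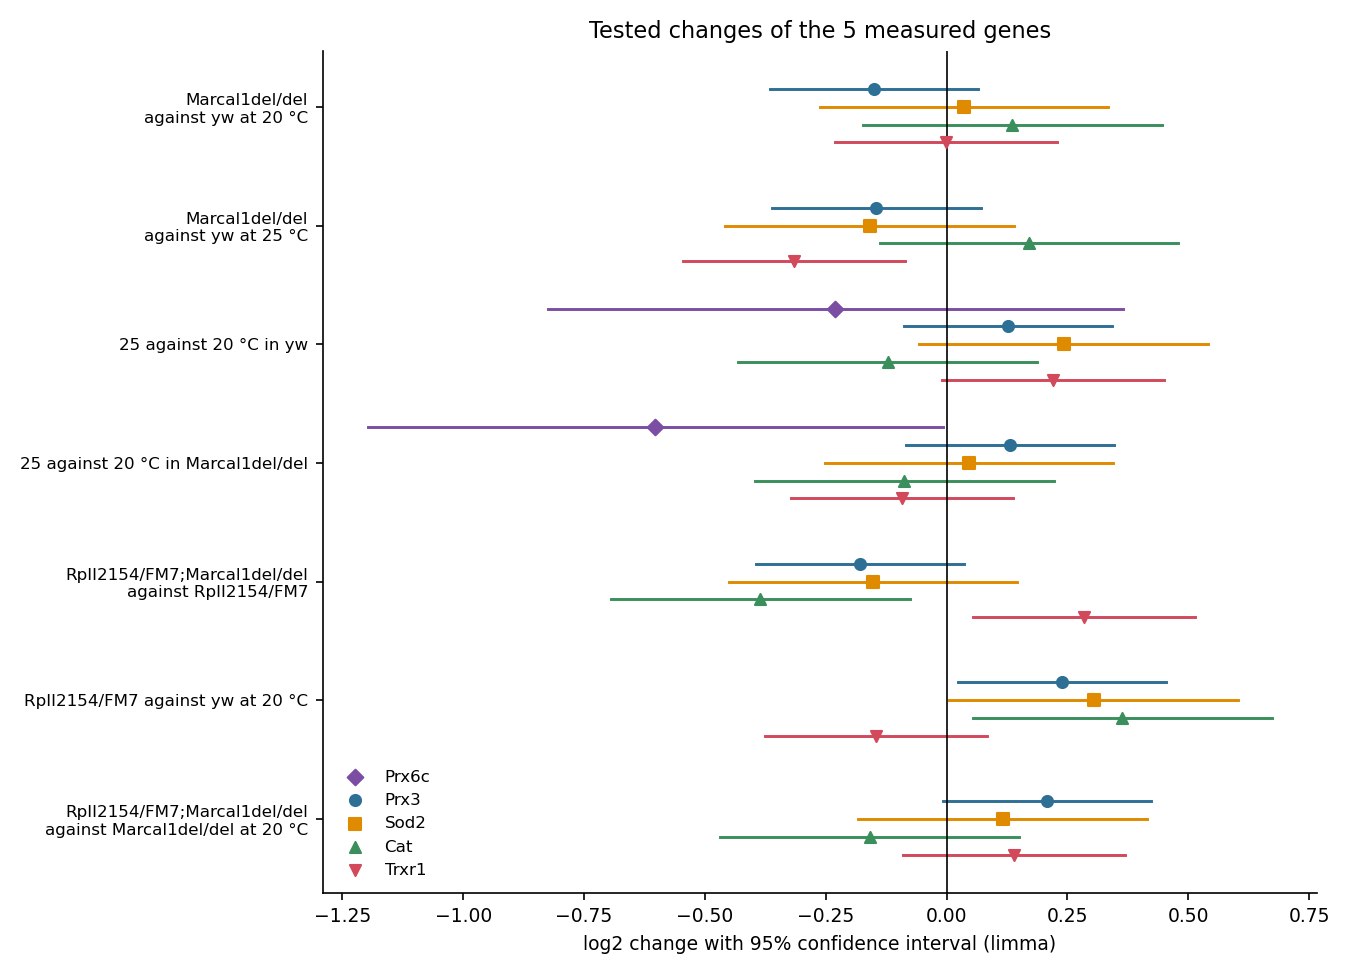
Change in log2 (x axis) with its 95% confidence interval from limma for Prx3, Sod2, Cat and Trxr1 in 7 comparisons of 2 groups (y axis), and for Prx6c in the 2 comparisons of temperature where it was tested. The largest change of the 4 other genes is that of Cat, at -0.39, and no interval of theirs passes 0.70.

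Counted against all probe sets, 0 of the 4 genes were called between Marcal1del/del and yw at 20 °C, where 1.18% of probe sets were called, and 0 at 25 °C, where 1.23% were. Between 25 and 20 °C, 0 of 5 were called in yw (0.256% of probe sets) and 0 of 5 in Marcal1del/del (0.202%), and the difference between the stock changes at the 2 temperatures called 0 of 4 (0.0107%). Between RpII2154/FM7;Marcal1del/del and RpII2154/FM7 0 of 4 were called (1.88%), and the difference of the deletion's change with and without RpII2154/FM7 called 0 of 4 (0.97%). RpII2154/FM7 against yw called 0 of 4 (2.76%) and RpII2154/FM7;Marcal1del/del against Marcal1del/del 0 of 4 (3.85%). At these shares, 0 calls among 4 genes is near the background. At an unadjusted p under 0.05 the 4 genes gave 3 in RpII2154/FM7 against yw (Prx3, Sod2 and Cat, all higher), where 17.2% of all probe sets passed that level, and 2 in RpII2154/FM7;Marcal1del/del against RpII2154/FM7 (Cat and Trxr1), where 18.6% did. The median change of the 4 genes in those comparisons was 0.27 and -0.17, against -0.002 and 0.02 for all probe sets.

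The rest of the pathway was covered by 52 other genes, 47 of them measured. Of its peroxiredoxins, Prx6a, another gene of the Prx6 class, had group means of 9.08 to 9.34 and was called in no contrast. Prx1 lay below every array median in every group. Among 15 genes listed for the thioredoxin and glutaredoxin system, which include the germline thioredoxin dhd with group means of 14.1 to 14.2, Grx1 alone was called. That list also holds pdgy, which is neither a thioredoxin nor a glutaredoxin and was counted with it. Grx1, a glutaredoxin that reduces disulphides with glutathione, rose by 0.44 ± 0.10 (SE) in RpII2154/FM7 against yw (adjusted p = 0.0309). Neither of the 2 measured genes of glutathione synthesis, Gclc and Gclm, was called.

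By comparison, 2 of the 47 genes were called in Marcal1del/del against yw at 20 °C and 3 at 25 °C, where 1.46% and 1.55% of all genes were. The lists were chosen with results for mol and ry known, so these counts are not independent evidence that the pathway differs from other genes. Both temperatures called mol and ry. The gene mol encodes the maturation factor of the oxidase Duox, which makes hydrogen peroxide, and ry encodes xanthine dehydrogenase, which makes urate. At 20 °C mol fell by 5.19 ± 0.29 (SE; adjusted p = 3.15e-08), to 4.81, 4.02 and 4.25 in Marcal1del/del, near the array medians. The 4.02 is below every array median (4.08 to 4.20), so sizes of mol changes that use this group, here and below, are less certain. The ry set read 3.87, 3.75 and 3.32 in yw at 20 °C, below the median of every array, and 7.65, 7.52 and 7.26 in Marcal1del/del. The files give no detection call, so the size of the ry change is given as a bound: with values below an array's median raised to that median, ry was at least 9.86-fold higher at 20 °C and at least 8.87-fold higher at 25 °C (adjusted p = 5.53e-06 and 5.55e-06 on the values as deposited). Duox itself had group means of 9.02 to 9.25 and was not called. The third gene called at 25 °C, Irp-1B, for an iron regulatory protein, fell by 0.43 ± 0.09 (SE; adjusted p = 0.0337). With each array of these groups left out in turn, its adjusted p ran from 0.0613 to 0.165, so the Irp-1B call ended each time.

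Temperature called 0 of the 47 genes in yw (0.376% of all genes) and 0 in Marcal1del/del (0.292%). At an unadjusted p under 0.05 the counts were 6 and 2, where 7.43% and 4.25% of all probe sets passed that level. RpII2154/FM7;Marcal1del/del against RpII2154/FM7 likewise called 0 of 47 (2.27% of all genes). In that comparison 10 were under an unadjusted p of 0.05, where 18.6% of all probe sets were. Neither mol, at 9.14, 9.57 and 9.60 in RpII2154/FM7 and 9.77, 9.77 and 9.36 in RpII2154/FM7;Marcal1del/del, nor ry, at 4.90, 4.26 and 6.03 against 3.68, 3.67 and 4.37, was called there. The difference of the deletion's change with and without RpII2154/FM7 was called for mol (5.38 ± 0.40, SE) and ry, 2 of 47 where 1.17% of all genes were. For ry it rests on yw and RpII2154/FM7;Marcal1del/del, whose means of 3.65 and 3.91 are below every array median, so its size was not measured. In the other contrasts the unadjusted counts of 47 were 10 in Marcal1del/del against yw at 20 °C (7.65% of all probe sets) and 5 at 25 °C (8.50%). They were 18 in RpII2154/FM7 against yw (17.2%) and 8 in RpII2154/FM7;Marcal1del/del against Marcal1del/del (20.0%). The difference with and without RpII2154/FM7 gave 12 (10.7%) and that between temperatures 0 (1.57%). These counts were not tested.

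In RpII2154/FM7 against yw, 4 of the 47 genes were called, where 3.23% of all genes were. Besides Grx1, Keap1 rose by 0.43 ± 0.11 (SE; adjusted p = 0.0432) and the kinase gene Sik3 fell by 0.50 ± 0.12 (adjusted p = 0.0432). Also called was ry (adjusted p = 0.0303 on the values as deposited). With yw raised to the array medians as before, its mean in RpII2154/FM7, 5.06, was 1.85-fold higher. Those arrays read 4.90, 4.26 and 6.03. The highest was replicate 3, which stood apart, and the 1.85-fold was not computed without it. Keap1 holds back the antioxidant regulator encoded by cnc, which was not called. Without the arrays that stood apart none of the 4 kept its call (adjusted p = 0.0516 for Keap1, 0.0897 for Grx1, 0.0614 for ry and 0.0702 for Sik3). With only the 6 arrays of these groups in the fit their adjusted p was 0.178 to 0.202. SelR, listed for methionine sulfoxide reduction, was not counted, since the set of highest mean that represents it was not called. Its dimmer set fell by 0.44 (adjusted p = 0.0209). That set kept its call without the arrays that stood apart (adjusted p = 0.0485) and lost it in 5 of 14 alternatives.

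RpII2154/FM7;Marcal1del/del against Marcal1del/del called 3 of the 47 genes, where 4.56% of all genes were. As with Prx6c, ry was lower in RpII2154/FM7;Marcal1del/del, at least 9.77-fold by that bound (adjusted p = 6.78e-06), and mol rose by 5.27 ± 0.29 (SE; adjusted p = 1.85e-08). Sod3, which encodes an extracellular superoxide dismutase, fell by 0.49 ± 0.13 (adjusted p = 0.0475), a call lost in 9 of 14 alternatives, among them each of the 6 arrays left out in turn (adjusted p = 0.0657 to 0.159). Its other probe set fell by 1.61 ± 0.33 (adjusted p = 0.0117) and so differed in size. That set read 8.05 on yw replicate 1 against 9.47 and 8.89, and 7.75 on RpII2154/FM7 replicate 3 against 9.17 and 8.80, the same arrays on which eggshell genes were low. Eggshell genes averaged 11.4 to 12.5 in RpII2154/FM7;Marcal1del/del and 13.7 to 14.2 in Marcal1del/del, and their part in the Sod3 change was not tested. The comparison shares its arrays with others above, so the values of mol and ry are not further evidence of them.

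**Figure D5:**
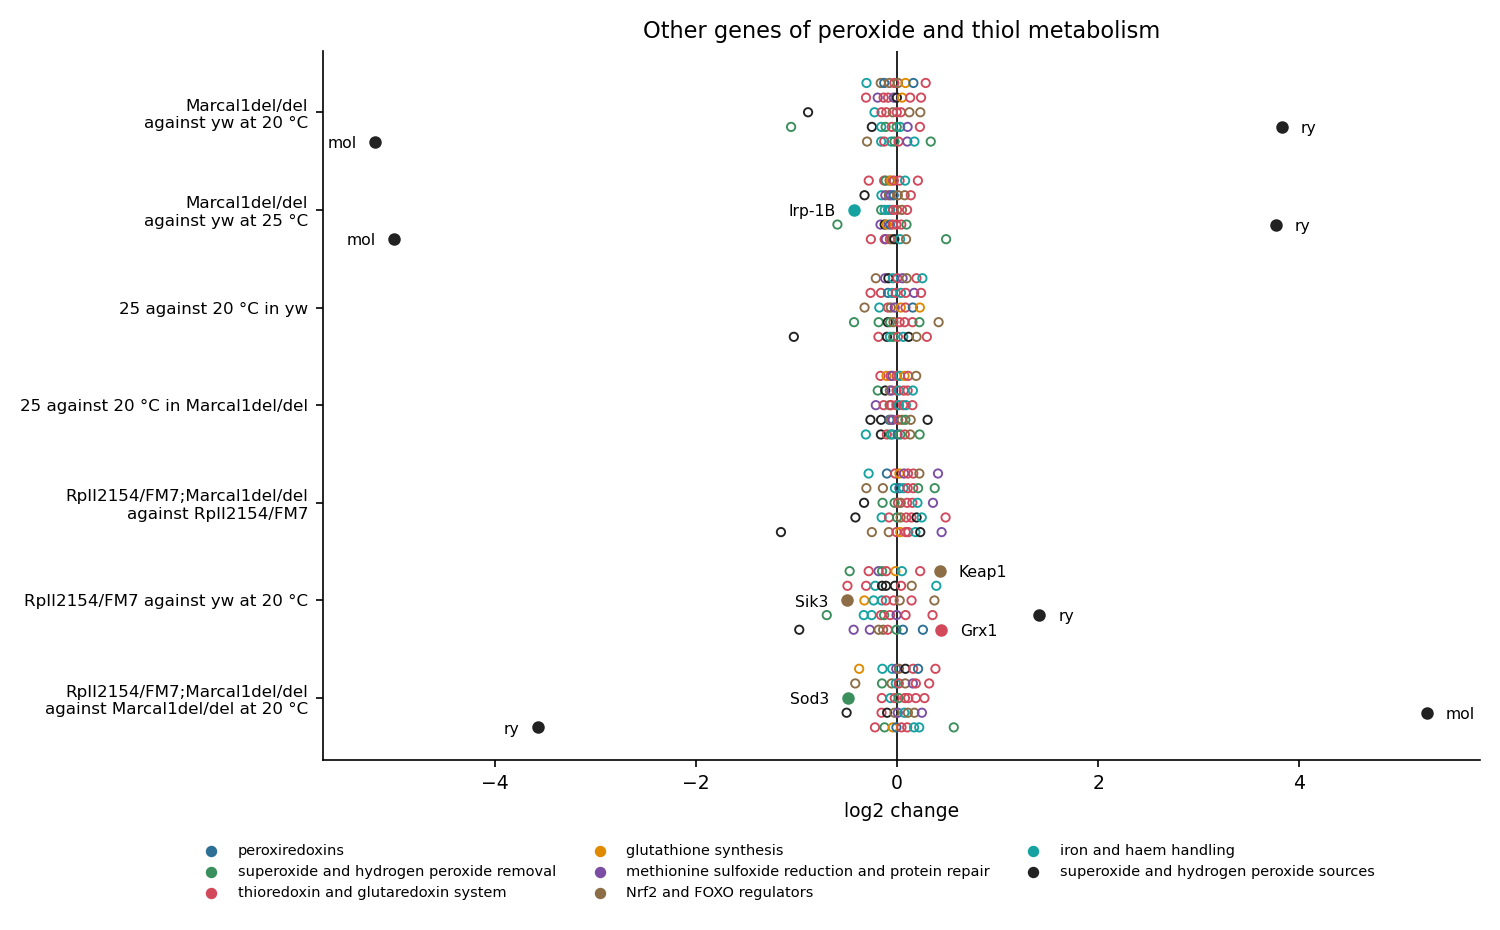
Change in log2 (x axis) of the 47 other measured genes in 7 comparisons of 2 groups (y axis), 1 probe set a gene, coloured by list, with called genes filled and named and vertical scatter within a comparison for legibility only. Most genes lie within 1 of 0, and mol and ry stand apart at -5.19 and 3.83 for Marcal1del/del against yw at 20 °C (ry in yw is below every array median, so its points do not measure size).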

How the data were processed

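The deposited values of the 18 ovary samples are log2 intensities per probe set. Per the submitters' processing notes the authors used RMA, which adjusts the background, equalizes the arrays' distributions and summarizes the probes of a set. A shift common to most transcripts is therefore removed. No version of RMA is stated in the labels.

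Of 18952 probe sets, 183 controls were set aside and 18769 tested with no filter on low values. Names came from the platform annotation, with symbols updated through gene identifiers to NCBI's Release 6 annotation: 13647 sets named 1 gene, 402 several, and 4720 are unnamed here. A gene of several sets was represented by the set of highest mean, which gave 11983 genes. Only chromosome arms and gene order were used, since the array annotation's build was not given. No sequence table was at hand, so no sequence is printed.

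Groups followed the titles. For RpII2154/FM7 replicates 2 and 3 the genotype label reads FM8 and FM9 in place of FM7. limma 3.58.1 (R 4.3.3) gave 9 contrasts from 1 fit of group means to all arrays, 2-sided, adjusted by Benjamini-Hochberg over all probe sets and called under 0.05. The method was tested on simulated data. With 3 arrays a group, their number limits precision.

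The members and gene lists were chosen with earlier results of these data known. Genes named are the members, the 5 most and 5 least like Prx6c, up to 5 measured neighbours on each side, and each called pathway gene. Equal replicate numbers did not pair samples: deviations from group means correlated with a median r of -0.03 over 45 same-number pairs and 0.01 over 90 others. Alternatives tried were other normalizations, a filter on dim sets, other variance models, array weights, a replicate block, only the arrays compared, and arrays left out.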

Additional observations from a re-analysis of the deposited data

Results flagged for a closer look

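Among the 5 measured members and the 47 other measured genes, 4 were flagged. Their change with Marcal1del/del at 20 °C ran in opposite directions with and without RpII2154/FM7 with no overlap of arrays, or differed by a test. The share of all genes meeting this rule was not computed, so the count is not a result about the pathway. Prx6c differed by -3.80 in log2, from 1.26 without RpII2154/FM7 to -2.54 with it, with every Marcal1del/del array above the yw arrays and every RpII2154/FM7;Marcal1del/del array below the RpII2154/FM7 arrays. This difference was not tested, because Prx6c was chosen for it. The change of mol differed by 5.38 ± 0.40 (SE; limma, adjusted p = 1.18e-06), from -5.19 to 0.19. The change of ry differed by -4.99 ± 0.47 (SE; adjusted p = 1.54e-05), from 3.83 to -1.15, but its means in yw (3.65) and RpII2154/FM7;Marcal1del/del (3.91) are below every array median, so these sizes were not measured. Keap1 differed by -0.48 ± 0.15 (SE), from 0.23 to -0.25, with no overlap of arrays on either side, and did not pass the test (adjusted p = 0.201).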

How the results depend on the processing

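Besides 8 alternatives, each compared array was left out in turn for every contrast. The mean of all probe sets of a gene was not run, since each member has 1 set. The array-weight estimate stopped before its tolerance was reached. Of 580 alternative values of tested member changes, 548 kept direction and side of the threshold. None of 110 alternative Prx6c stock differences moved by over 1 SD, and that between RpII2154/FM7;Marcal1del/del and RpII2154/FM7 ran from -2.67 to -2.36.

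Array weights called 1 member in 3 contrasts: Trxr1 in Marcal1del/del against yw at 25 °C (-0.30, adjusted p = 0.0328), Sod2 between 25 and 20 °C in yw (0.30, adjusted p = 0.0143) and Cat in RpII2154/FM7 against yw (0.43, adjusted p = 0.035). No other alternative called a member.

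Called probe sets ranged with the setting, over all alternatives, from 127 to 1270 (221 as reported) for Marcal1del/del against yw at 20 °C, 125 to 1233 (230) at 25 °C, 2 to 5109 (48) for temperature in yw, 10 to 157 (38) in Marcal1del/del, 2 to 13 (2) for the difference between temperatures, 146 to 743 (352) for RpII2154/FM7;Marcal1del/del against RpII2154/FM7, 128 to 349 (182) for the difference with and without RpII2154/FM7, 137 to 2175 (518) for RpII2154/FM7 against yw and 333 to 1271 (722) for RpII2154/FM7;Marcal1del/del against Marcal1del/del.

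Pathway genes called in Marcal1del/del against yw at 20 °C (2 as reported) became 4 without the 3 arrays that stood apart and 9 with array weights, and 2 to 4 with 1 array left out. With array weights they became 6 at 25 °C (3 as reported; 2 with any array left out), 9 for temperature in yw and 1 in Marcal1del/del (0 as reported). For temperature in yw they became 2 without the 3 arrays, and 0 to 1 with 1 array left out. In RpII2154/FM7;Marcal1del/del against RpII2154/FM7 the count with 1 array left out was 0 to 1. In RpII2154/FM7 against yw (4 as reported) it was 0 with only the arrays compared, 1 with the replicate block, 2 without the 3 arrays, 2 after a repeated quantile normalization, 15 with array weights and 0 to 6 with 1 array left out. The 2 called without the 3 arrays were not among the 4 as reported, none of which kept its call. Replicate block fits kept every member below the threshold. They also ended the calls of Irp-1B (adjusted p = 0.0508), Keap1 (0.0694), Grx1 (0.0566), Sik3 (0.0528) and Sod3 (0.0609). The mol and ry calls with Marcal1del/del, and the differences with and without RpII2154/FM7, held in all alternatives.

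In some alternative, 10 results changed sign, none of them called. The Trxr1 change in Marcal1del/del against yw at 20 °C (-0.002) was 0.0573 without the 3 arrays and 0.0087 with arrays centred on their medians. For Prx6c between temperatures in yw it was 0.0758 without the 3 arrays. The Prx3 difference between temperatures (0.0045) was -0.0702 without the 3 arrays and -0.0036 after median centring. With 1 array left out, Marcal1del/del against yw at 20 °C ran from -0.12 to 0.19 for Sod2, -0.0023 to 0.28 for Cat and -0.12 to 0.0871 for Trxr1. Between temperatures in Marcal1del/del it ran from -0.0228 to 0.17 for Sod2, -0.24 to 0.0509 for Cat and -0.18 to 0.0294 for Trxr1. The difference between temperatures ran from -0.11 to 0.17 for Cat and -0.10 to 0.10 for Prx3, and that with and without RpII2154/FM7 from -0.13 to 0.0651 for Prx3. The causes were not tested.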
